A study of Mus musculus with 2 samples.

Results

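The heat shock proteins and the DNAJ proteins are the main families of molecular chaperones, and their transcripts were read here in samples labelled as mouse liver. The members were all array probes whose gene symbol in the platform annotation begins with Hspa, Hspb, Hspd, Hspe, Hsph or Hsp and a digit, or with Dnaja, Dnajb or Dnajc and a digit. This rule, which uses names and no measured value, took 78 of the 23474 gene probes, and they belong to 72 of 19318 genes with a symbol. By symbol, 13 genes were HSP70 or HSP110 proteins, 2 HSP90, 7 small heat shock proteins, 2 chaperonins, 4 DNAJA, 12 DNAJB and 27 DNAJC. Another 2, Hspbp1 and Hspbap1, encode partner proteins whose symbols fit the rule, and 3 are annotated as pseudogenes.

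Total RNA was hybridised to 2 single-colour arrays, 1 for each genotype. The control mouse carried Twist2-Cre, and the other genotype was Twist2-Cre/A20fl/fl, called CKO here, so both groups carry the Cre allele. Both were 24 weeks old. The labels name liver as the tissue, while the extraction protocol speaks of cells, so whether whole tissue or a cell preparation was used is not settled. Twist2-Cre acts in cells of mesenchymal descent, and A20, the product of Tnfaip3, restrains NF-kB signalling. The sources used here do not give the strain background or how many animals each RNA came from. Since each genotype has 1 array, differences could not be tested or checked in a replicate, their error between animals is unknown, and every value below compares these 2 arrays.

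HSP70 proteins bind exposed hydrophobic stretches of unfolded proteins in a cycle driven by ATP. DNAJ proteins deliver the clients and stimulate the ATPase through their J domain, and HSP90 acts later on clients such as kinases and steroid receptors. Small heat shock proteins hold unfolding proteins without ATP, while the chaperonin HSP60, with its lid HSP10, folds proteins inside mitochondria. When proteins unfold in the cytosol, the transcription factor HSF1 induces many of these genes through heat shock elements, inverted repeats of GAA. Unfolded protein in the endoplasmic reticulum (ER) induces another set through the ER stress response element (ERSE). The liver secretes large amounts of protein and its ER chaperones are abundant.

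Deposited intensities are the submitters' background-subtracted values on a linear scale in arbitrary units, and each is given for the control and then the CKO liver. Ratios are log2 of CKO over control after background correction with an offset of 50 and quantile normalization; this scale shrinks the differences of dim genes. A gene was called at 1.5-fold, and it counted as above background where the spot lay more than 2 SD over the mean of the blank spots. As guides to size only, the ratios of repeated positive control spots had an SD of 0.11 (48 spots), and probes of 1 gene differed in ratio with an SD of 0.13 (717 genes). Levels of different genes are not compared, since each probe has its own response.

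Of the 72 member genes, 63 were above background on both arrays, 3 on 1 array and 6 on neither. The 6 were Dnaja4, Dnajc5b, Dnajc5g, Dnajc6, Hspb3 and Hspb9. Over the whole platform 14143 genes were above background on both. Hepatocyte markers were present, with albumin (Alb) at intensities of 37440 and 36770 and transthyretin (Ttr) at 40280 and 36430. Tnfaip3 had intensities of 41 and 38, a ratio of -0.07; the part of the transcript its probe reads is not known, and liver holds cells that Twist2-Cre does not reach, so this value does not check the genotype.

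Promoter sequences, some of them printed below, were searched for heat shock elements and the ERSE. They were taken from RefSeq (GRCm38.p6) for windows from 250 bases before to 50 bases after a gene's start. Of the 72 members, 57 had such a window. Hspa8 and Hsp90aa1 were among those without a window and were not searched. A heat shock element of 3 units was searched on both strands: GAA, TTC and GAA, or TTC, GAA and TTC, with 2 bases of any kind between neighbours. It was found for 4 members (7.02% of 57), Hspe1, Hspd1, Hsph1 and Dnajb6, and for 0.662% of all 27025 genes with a window. The shorter pair of 2 such neighbouring units, which lies within the longer element, was found for 15 members (26.3%) and 17% of all genes. The ERSE, searched on both strands as CCAAT, 9 bases of any kind and CCACG, was found for 3 members (5.26%), Hspa5, Hsp90b1 and Dnajc3, and for 0.137% of all genes. A match describes letters and is not evidence that a factor binds there.

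Hspe1 and Hspd1, which encode HSP10 and HSP60, are transcribed away from each other on chromosome 1 from start sites 216 bases apart. The stretch between these sites lies upstream of both. Hspd1 has another annotated start, whose window (chr1:55088194-55088493, minus strand) lies outside this stretch and holds 0 of the 3-unit elements. The stretch is given on the Hspe1 strand (plus), chr1:55087933-55088147, with a run of 18 bases that holds overlapping 3-unit elements in capitals. That run begins 89 bases before the Hspe1 start.
Hspe1 and Hspd1: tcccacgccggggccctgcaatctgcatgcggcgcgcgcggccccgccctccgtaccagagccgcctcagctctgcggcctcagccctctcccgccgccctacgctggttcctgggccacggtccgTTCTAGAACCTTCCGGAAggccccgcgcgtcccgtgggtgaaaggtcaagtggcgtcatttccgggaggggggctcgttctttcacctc
In Hsph1, an HSP110 gene, the element lies past the start, at base 16 (chr5:149636281-149636306, minus strand, element in capitals).
Hsph1: tgcagaTTCTGGAAAGTTCtcctcag
Dnajb1, the member with the largest difference between the livers, had neither form of the element in its windows. Its stretch from 200 bases upstream to the start is chr8:83607975-83608174 on the plus strand.
Dnajb1: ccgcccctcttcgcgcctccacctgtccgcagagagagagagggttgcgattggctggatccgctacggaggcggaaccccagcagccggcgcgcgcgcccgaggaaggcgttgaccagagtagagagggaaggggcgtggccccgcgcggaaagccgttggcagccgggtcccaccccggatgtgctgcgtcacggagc
The ER chaperones BiP (Hspa5, chr2:34771940-34772089, plus strand) and GRP94 (Hsp90b1, chr10:86705445-86705694, minus strand) and the co-chaperone P58IPK (Dnajc3, chr14:118937782-118937931, plus strand) carry the ERSE, shown in capitals, with 2 copies in Hsp90b1.
Hspa5: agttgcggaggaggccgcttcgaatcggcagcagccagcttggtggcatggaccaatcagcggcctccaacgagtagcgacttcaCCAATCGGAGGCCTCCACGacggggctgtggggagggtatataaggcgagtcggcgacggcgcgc
Hsp90b1: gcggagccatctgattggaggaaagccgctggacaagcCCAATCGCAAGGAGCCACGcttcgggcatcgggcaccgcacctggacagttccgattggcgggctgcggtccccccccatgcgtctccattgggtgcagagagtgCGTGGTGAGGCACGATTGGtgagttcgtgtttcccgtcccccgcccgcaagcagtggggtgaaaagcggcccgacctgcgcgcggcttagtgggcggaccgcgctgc
Dnajc3: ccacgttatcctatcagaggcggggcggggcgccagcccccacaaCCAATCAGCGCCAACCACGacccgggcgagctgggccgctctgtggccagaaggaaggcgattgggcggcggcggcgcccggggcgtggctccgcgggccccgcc

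The comparison asks whether chaperone transcripts stand at other levels in the CKO liver, and most stood at similar levels. Among the 63 members that both arrays measured above background, 37 had a ratio within 0.13 of 0, the SD between probes of 1 gene. Small ratios were usual on this scale: the median absolute ratio was 0.09 for these members and 0.07 for all genes above background on both arrays. Differences were mostly on the lower side: 2 members (3.17%), Dnajb1 and Hspe1, were lower in the CKO liver by at least 1.5-fold, against 0.417% of all genes, and 0 were higher by that amount, against 1.7% of all genes. At 2-fold, 0 members were higher and 0 lower, where 0.636% and 0.0778% of all genes were. In the deposited intensities 5 members were at least 1.5-fold lower, against 3.92% of all genes there, and 0 higher, against 6.87%. Those 5 were Dnajb1, Hspe1, Hsp90aa1, Hspa8 and Hspa1l, the last at intensities of only 6 and 3. On the log2 scale 42 members were lower and 21 higher by any amount, where 57.7% of all genes were lower and 42.2% higher. The members' median ratio was -0.03, beside -0.02 over all genes. Of all members, 5 lay below the lowest 1 percent of genes by ratio (-0.43), and these were Dnajb1, Hspe1, Hsp90aa1, Hspa8 and Hspb7; 0 lay above the highest 1 percent (0.79).

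**Figure D1:**
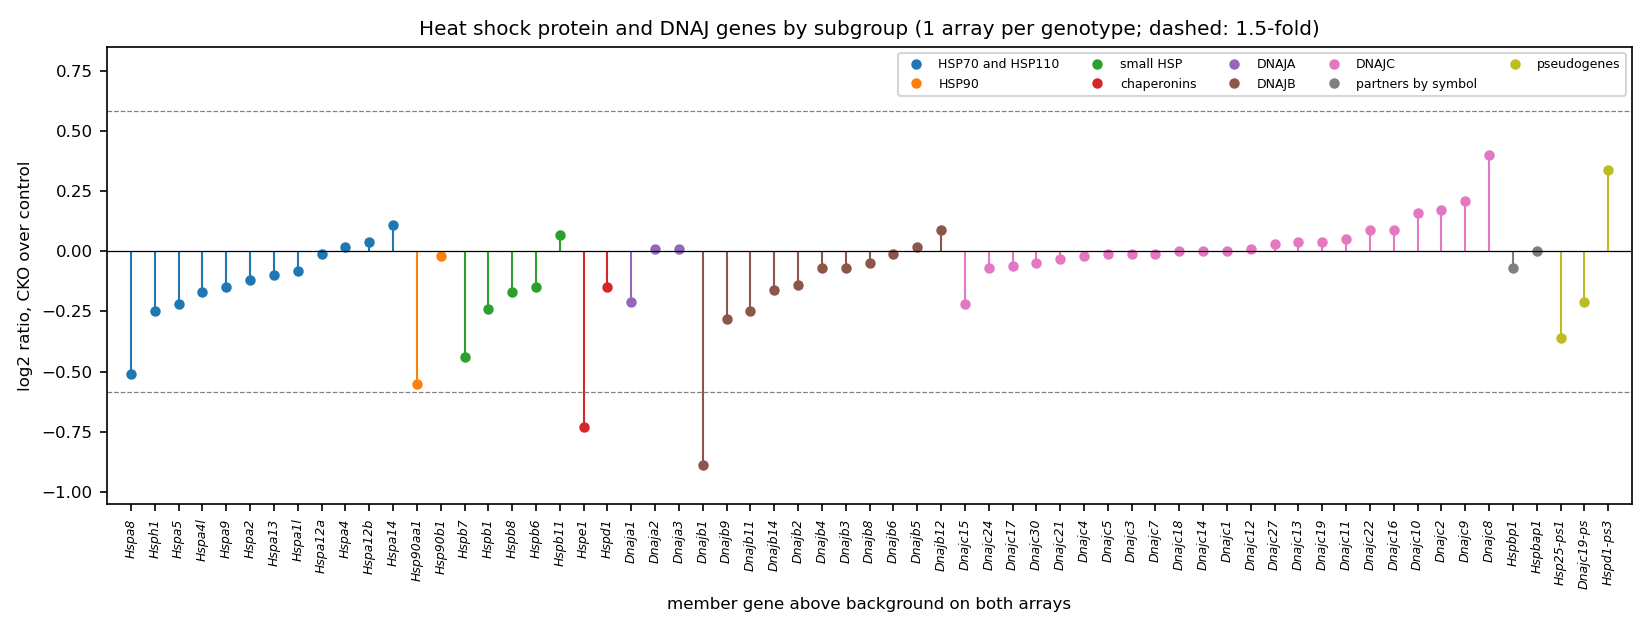
Log2 ratio of CKO over control for each of the 63 members measured above background on both arrays, in 9 subgroups; each point is 1 gene from 1 array per genotype, and dashed lines mark 1.5-fold. Dnajb1 (-0.89) and Hspe1 (-0.73) lie below the lower line, no member lies above the upper line, and the 23 DNAJC genes gather around 0.

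The HSP70 and HSP110 genes were lower in 9 of 12 cases above background on both arrays, beside 57.7% of all genes. Their median ratio of -0.11 kept its sign under all 5 other treatments of background and scaling. The largest difference was that of Hspa8, the mainly constitutive cytosolic HSP70, whose intensities were 4992 (control) and 3269 (CKO), a ratio of -0.51 (1.42-fold lower). BiP (Hspa5), the HSP70 of the ER, read 5424 and 4166 (-0.22). The mitochondrial HSP70 Hspa9 read 795 and 683 (-0.15). Each of these 3 compartments therefore had its HSP70 transcript lower on the CKO array, by amounts that only for Hspa8 exceeded the spread of genes at its level (0.18) by more than 2 times.

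Among the HSP110 proteins, which exchange nucleotide on HSP70, results were mixed. Hsph1 read 49 and 34 (-0.25), and the related Hspa4l 50 and 40 (-0.17). Hspa4 read 699 and 669, a ratio of 0.02. The order of these 3 depended on the background: against the local background column, described at the end of the results, the ratios were 0.08 for Hsph1, 0.32 for Hspa4l and -0.45 for Hspa4.

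The other HSP70 genes were dim. Hspa14, a ribosome-associated HSP70, read 50 and 58 (0.11), and the ER protein Hspa13 read 17 and 13 (-0.10). The testis-type Hspa2 read 16 and 11 (-0.12), and Hspa1l 6 and 3 (-0.08). Hspa12a (7 and 7, -0.01) and Hspa12b (4 and 6, 0.04) were close to background. Hspa1a, the classical heat-inducible HSP70, was above background on the control array only, with intensities of 4 and 2, and was at least 1.04-fold lower. These values are too near background to order, and Hspa1a has near-identical relatives whose transcripts a probe can share.

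Both HSP90 genes were lower under every treatment, the ER one by little except against the local background column. Hsp90aa1 read 3327 and 2110, a ratio of -0.55 (1.46-fold lower on the log2 scale used, 1.58-fold in the deposited intensities). Hsp90b1, or GRP94, read 5608 and 5190 (-0.02, as deposited -0.11, and -0.74 against the local column). Hsp90aa1 passed 1.5-fold with median scaling (-0.59), with the local background column (-1.74) and as deposited (-0.66). Its place beside the threshold therefore depended on the background as well as the scaling. Hsp90ab1 was not analysed here.

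The chaperonin pair was lower together but by unequal amounts. Hspe1 read 329 and 175, a ratio of -0.73 (1.66-fold lower). Its partner Hspd1 read 3793 and 3145 (-0.15). The stretch printed above lies upstream of Hspe1 and of the Hspd1 start 216 bases away, but not of the other annotated Hspd1 start. Both genes were lower under every treatment tried, with Hspe1 between -0.72 and -1.20 and Hspd1 between -0.15 and -1.25.

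Among 5 small heat shock proteins above background on both arrays, 4 were lower (beside 57.7% of all genes), with a median of -0.17. Hspb7, known from heart and skeletal muscle, read 705 and 486 (-0.44), the largest difference of the subgroup. Hspb1, or HSP25, read 671 and 536 (-0.24), and Hspb8, a partner of BAG3 in selective autophagy, read 1800 and 1542 (-0.17). Hspb6 read 195 and 168 (-0.15). All 4 had the same sign under the other treatments, except Hspb1 against the local background column (1.92). Hspb11, which despite its symbol is a subunit of the ciliary transport complex IFT-B, read 81 and 87 (0.07).

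**Figure D2:**
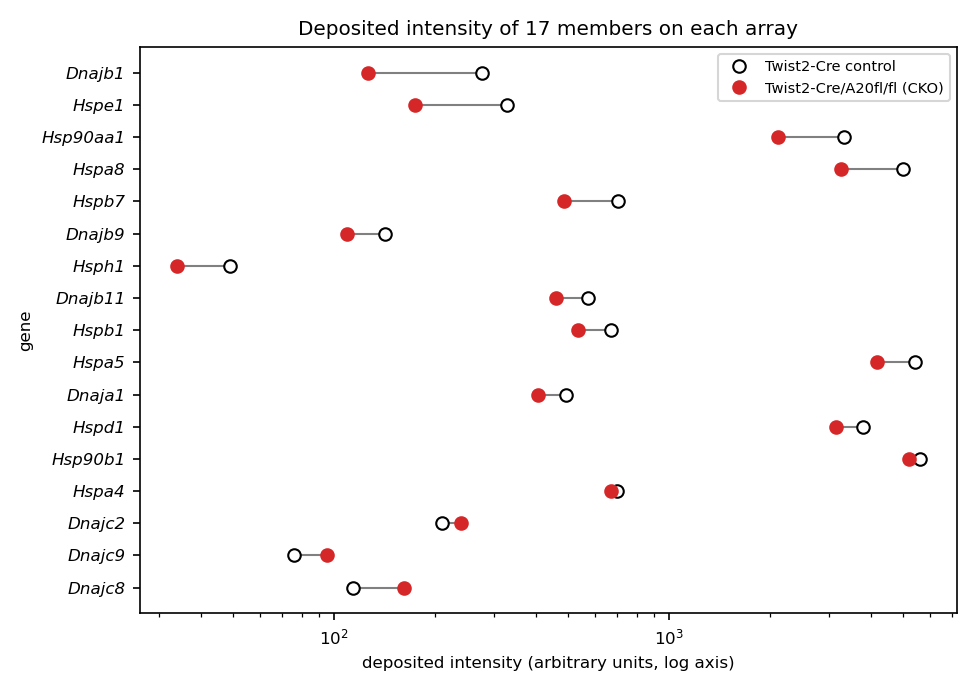
Deposited intensity in arbitrary units on a log axis for 17 members, each drawn as a pair of points joined by a line, open for the Twist2-Cre control and filled red for the CKO liver. Dnajb1 (277 and 126) and Hspe1 (329 and 175) have the longest lines to the lower side, and Dnajc8 (114 and 162) the longest to the higher side.

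The J-domain proteins had class medians near 0, and no difference between the classes was tested. Of 11 DNAJB genes above background on both arrays 9 were lower (median -0.07), and of 23 DNAJC genes 11 were lower and 12 higher (median 0.00), where 57.7% of all genes were lower. Of 3 DNAJA genes, Dnaja1, an HSP70 partner in the cytosol, read 493 and 407 (-0.21), whereas Dnaja2 (195 and 195) and the mitochondrial Dnaja3 (56 and 58) both had a ratio of 0.01; against the local column all 3 were lower (-0.77, -0.64 and -0.13). The DNAJB median was below 0 under all treatments. The DNAJC split followed the scaling: under median scaling 17 of 23 were higher (beside 6030 of all 14143 genes), and the median was 0.02.

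Dnajb1, or HSP40, the main J-domain partner of inducible HSP70, had the largest difference of all members. It read 277 and 126, a ratio of -0.89 (1.86-fold lower, 2.20-fold in the deposited intensities). This was lower than the ratio of all but 0.1% of the genes above background. The sign held under every treatment, but the size was only -0.13 against the local background column. The next DNAJB genes on the lower side belong to the ER: Dnajb9 (ERdj4) read 142 and 109 (-0.28), Dnajb11 (ERdj3) read 574 and 459 (-0.25), and Dnajb14, in the ER membrane, read 86 and 72 (-0.16). On the higher side were Dnajb12 (32 and 37, 0.09) and Dnajb5 (5 and 6, 0.02). Dnajb13, a sperm flagellum protein, was above background on the CKO array only (2 and 5) and at least 1.05-fold higher, with intensities too near background to read.

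Among DNAJC genes the largest difference was upward. Dnajc8, a factor associated with the spliceosome, read 114 and 162, a ratio of 0.40 (1.32-fold higher) that was positive under all treatments. Dnajc9, a histone co-chaperone, read 76 and 95 (0.21), and Dnajc2, which acts on the ribosome, read 210 and 240 (0.17). Dnajc10 (ERdj5), an ER reductase, read 19 and 27 (0.16). Dnajc9 alone of these 4 had the other sign against the local background column (-0.05). On the lower side, Dnajc15, at the mitochondrial import motor, read 369 and 301 (-0.22); Dnajc24 (45 and 41, -0.07), Dnajc17 (19 and 16, -0.06) and Dnajc30 (355 and 332, -0.05) were close to 0. Against the local column Dnajc15 (0.16) and Dnajc30 (1.15) were higher. Dnajc28 was above background on the CKO array only (2 and 3), at least 1.02-fold higher, but its ratio was -0.02 against the local column. Its intensities are too near background to read.

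Sorted by how the genes are induced, the heat-inducible members were lower, except for 4 of them against the local background column. This list (Hspa1a, Hspa1b, which had no probe under the rule, Hsp90aa1, Hsph1, Hspb1, Hspb8, Dnajb1, Hspa8, Dnaja1, Dnajb4, Hspa4l) was drawn from general knowledge of genes that heat raises. Earlier results of these data were known when the list was chosen, so the counts below describe it and are no independent test. It includes Hspa8, which is also expressed without stress, and leaves out Hspd1, Hspe1 and Dnajb6, whose promoter windows hold the 3-unit element. All 9 members above background on both arrays were lower, from -0.07 (Dnajb4) to -0.89 (Dnajb1), with a median of -0.24 beside -0.02 for all genes, of which 57.7% were lower. The count was 9 of 9 also with blank subtraction, the smaller offset, median scaling and the values as deposited. Against the local background column it was 5 of 9, beside 8367 of all 14143 genes, and Hspb1, Hsph1, Hspa4l and Dnajb4 were higher. Of the 9, 1 (Dnajb1) was lower by 1.5-fold, beside 0.417% of all genes. With median scaling 2 were (beside 0.41% of all genes), and as deposited 3 (33.3%, beside 3.92% of all genes). Against the local column 3 were (beside 4.47% of all genes), Dnajb1 not among them.

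Members of the ER and of mitochondria showed smaller differences. Of 13 ER members 9 were lower (7 with median scaling), beside 57.7% of all genes. Their median was -0.01, with a range from -0.28 (Dnajb9) to 0.16 (Dnajc10). The 3 genes with an ERSE, Hspa5, Hsp90b1 and Dnajc3, had ratios of -0.22, -0.02 and -0.01. Of 9 mitochondrial members 6 were lower, again beside 57.7% of all genes, with a median of -0.05. Hspe1 stood apart from the remaining 8, which lay between -0.22 and 0.05. The 4 members with a 3-unit heat shock element had ratios of -0.73 (Hspe1), -0.25 (Hsph1), -0.15 (Hspd1) and -0.01 (Dnajb6), and Dnajb1, without one in its windows, had -0.89. Hspa8 (-0.51) and Hsp90aa1 (-0.55) had no window and were not searched. An exact match in these windows cannot show that a gene lacks such an element, so the element was not weighed against the ratios.

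The proteins that work with these chaperones were read from lists of pathway partners. Of 24 heat shock factors and co-chaperones of HSP70 and HSP90 above background on both arrays, 22 (91.7%) were lower, beside 57.7% of all genes (median -0.13). By 1.5-fold 1 was lower (4.17%, beside 0.417% of all genes) and 0 higher (beside 1.7%); as deposited 4 were lower (16.7%, beside 3.92%). Fkbp4, the immunophilin FKBP52 that joins HSP90 to steroid receptors, read 2003 and 1220 (-0.62, 1.54-fold lower). Bag3, itself an HSF1 target that links HSP70 to HSPB8, read 74 and 41 (-0.47). The ubiquitin ligase CHIP (Stub1) read 362 and 275 (-0.31), and Bag6 read 586 and 450 (-0.30). Against the local background column the ratios were -1.21 (Fkbp4), -0.01 (Bag3), -0.65 (Stub1) and -0.23 (Bag6). The count of 22 held under 4 of the other treatments. It was 15 of 24 against the local background column, where 8367 of all 14143 genes were lower. The heat shock factors in this list were Hsf2 (5 and 4, -0.02) and Hsf4 (5 and 3, -0.07), both too near background to read. Hsf1 was not among the genes read.

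Of 26 other ER folding and unfolded-protein-response genes 19 were lower, beside 57.7% of all genes. None passed 1.5-fold, and the median was -0.11, but 0.09 against the local background column. Among the 4 with the largest ratios, Manf, Pdia4 and Sec61b were higher in CKO against the local column. Manf, a secreted ER stress protein, read 1031 and 772 (-0.33), the disulfide isomerase Pdia4 391 and 310 (-0.26), the translocon subunit Sec61b 1592 and 1273 (-0.25) and the BiP exchange factor Sil1 901 and 732 (-0.23). The stress regulators had ratios of 0.02 (Xbp1), -0.11 (Atf4) and -0.16 (Ddit3, or CHOP), and of -1.08, 1.57 and 0.05 against the local column. Genes of mitochondrial import and folding were divided, 9 of 16 higher, beside 42.2% of all genes. Their median was 0.04, but -0.04 against the local background column. Grpel1, the exchange factor of mitochondrial HSP70, read 619 and 737 (0.30) and the translocase subunit Timm17a 310 and 371 (0.26), while the protease subunit Clpp read 900 and 708 (-0.27) and Timm23 1480 and 1179 (-0.25, but 2.05 against the local column).

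The cytosolic chaperonin TRiC and its partner prefoldin had 8 of 13 genes lower (beside 57.7% of all genes), with a median of -0.02. The TRiC subunit Cct5 (314 and 241, -0.31) and Cct2 (330 and 368, 0.18) differed in direction, with Cct8 at -0.15 and the prefoldin subunit Pfdn5 at -0.13. Of 9 other stress proteins, several of them targets of the antioxidant factor NRF2, 6 were higher, beside 42.2% of all genes. Their median was 0.17, but -0.07 against the local background column. Hmox1, haem oxygenase, read 210 and 510 (1.14, 2.21-fold higher), the autophagy receptor Sqstm1 614 and 777 (0.39, but -0.33 against the local column), Srxn1 137 and 173.5 (0.25) and Nqo1 29 and 39 (0.18, but -0.07 against that column).

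**Figure D3:**
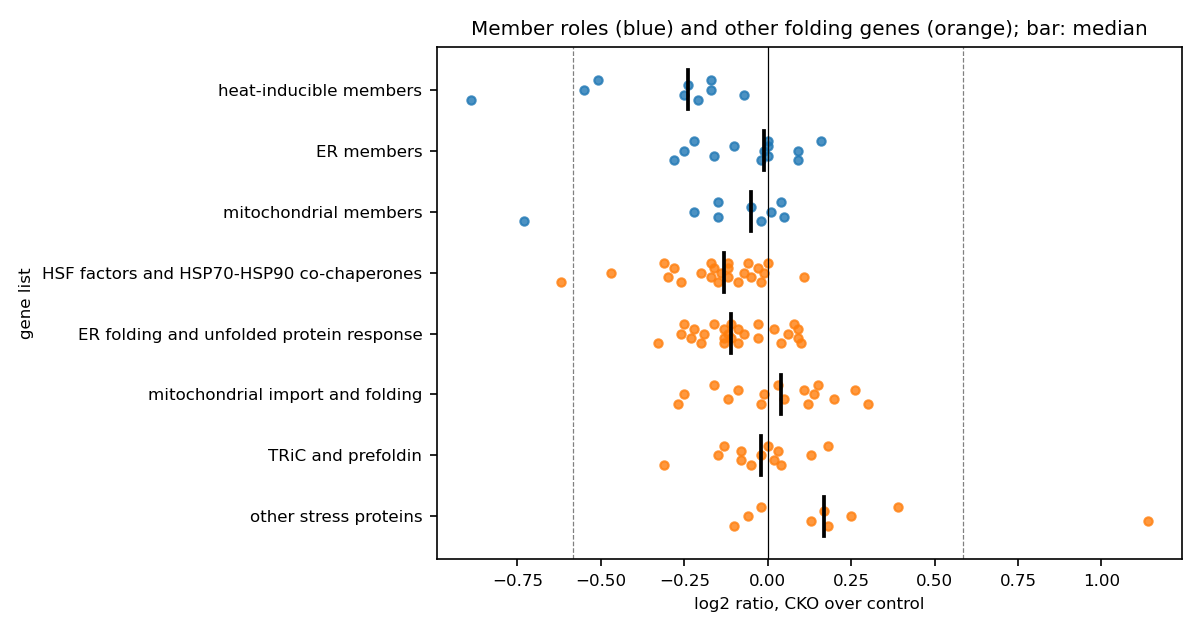
Log2 ratio of CKO over control for genes of 8 lists, each point 1 gene above background on both arrays, with a bar at the list's median and dashed lines at 1.5-fold. The 9 heat-inducible members all lie below 0 (median -0.24), 22 of 24 co-chaperones do so, and Hmox1 (1.14) is the point at the far right.

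Cell type markers also differed between the arrays. Their intensities were summed per cell type; the brightest probe sets most of a sum, so the sums describe the lists and do not measure cell numbers. All 6 Kupffer cell and macrophage markers above background on both arrays were higher in the CKO liver (median ratio 0.92), but 4 of 6 against the local background column. The 7 measured summed to 963 and 3618, of which Marco alone gave 74 and 1707; Adgre1 was not listed in the deposited values of the control. T and NK cell markers were higher in 4 of 4 cases and summed to 39 and 165, with Cd3e not listed on either array and Nkg7 not on the control. Of 5 endothelial markers 3 were lower (1182 and 784 in sum), while Pecam1 and Stab2 each had a ratio of 0.03. Of 6 fibroblast and stellate cell markers 4 were higher (median 0.04; 3 against the local column), although their sum was 1552 and 1210, which followed Dcn (1387 and 918). Cholangiocyte markers summed to 118 and 79. Of 5 hepatocyte markers 3 were higher (median 0.11, but -0.06 against the local column), although their sum was 104300 and 97520. Neutrophil markers were higher in 4 of 4 cases, B cell markers in 2 of 3 and red cell markers in 2 of 2, beside 42.2% of all genes. Against the local column these counts were 3 of 4, 1 of 3 and 1 of 2. Skeletal muscle markers, which bear on Hspb7, summed to 6 and 5, with 2 of 3 not listed on either array. The part of these shifts in the chaperone ratios was not tested. In bulk RNA, fewer cells of a type and less RNA per cell cannot be told apart.

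How the background is taken mattered more for these genes than how the arrays are scaled. The local background column of the scanner files rises with the spot's own signal: over gene probes the log2 values of spot and background correlated across spots at 0.988 (control) and 0.972 (CKO). The mean of the blank spots was therefore used, and the local column served as an alternative. Between the first 5 treatments the ratio of Hspa8 ran from -0.51 to -0.61 and that of Dnajb1 from -0.87 to -1.14, whereas against the local background they were -0.89 and -0.13.

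**Figure D4:**
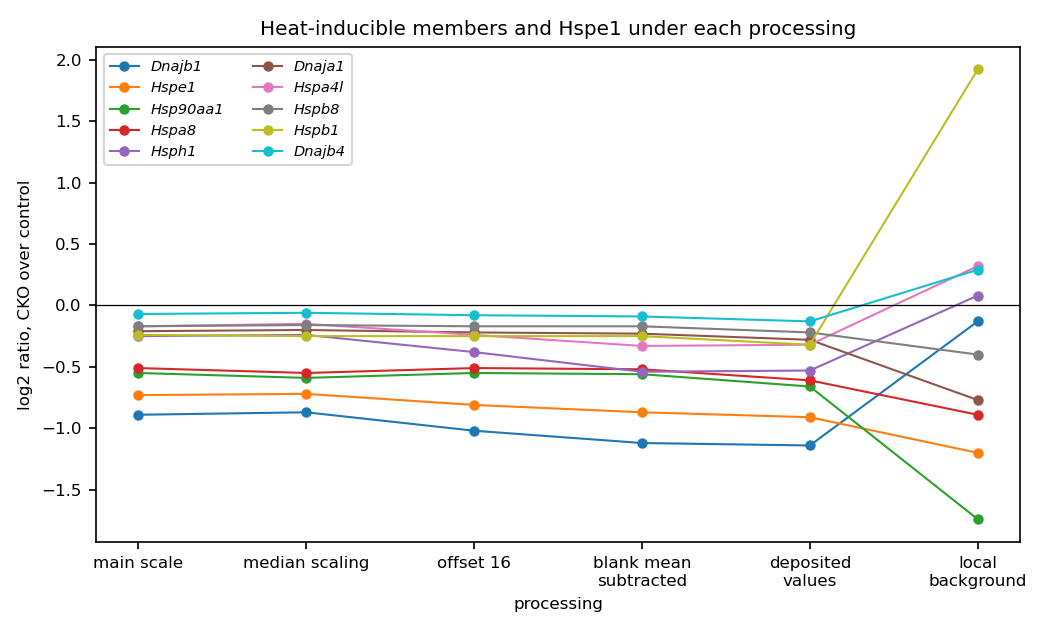
Log2 ratio of CKO over control for 9 heat-inducible members and Hspe1 under 6 ways of processing, each line 1 gene. All 10 lie below 0 in the first 5, and against the local background column 4 of them lie above 0, with Hspb1 at 1.92.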

How the data were processed

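RNA of 1 liver sample per genotype was read on a single-colour array. Per the labels' protocols it was amplified as amino allyl aRNA and coupled to Cy5. Per the file headers, the scanner files hold a median intensity per spot and a local background median, read at 635 nm and 3 gains. How the authors made the deposited table of linear intensity is not stated; tested on the files, each value is close to the spot minus 67.1 (control) or 69.2 (CKO), times 0.859 or 0.825 (largest residual 3.53 and 0.514). Spots were corrected with normexp against the mean of the 384 blank spots (offset 50; limma 3.58.1, R 4.3.3), control spots left out, and the arrays quantile-normalized to log2; 4 flagged spots were omitted. A gene is the mean of its probes. Of the gene probes 20690 had 1 symbol, 0 several and 2784 none; 20556 matched RefSeq, where 0 symbols differed. Blank spots averaged 67.1 (SD 1.17) and 69.3 (SD 1.45), gene spots had medians of 81.1 and 84.0, so dim genes are imprecise; having 1 array per group limits precision. The steps were tested on a simulated array, copied from the control array with added noise and known folds for brighter genes. That test does not bear on changes of dim genes, the error between animals or the choice of background.

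The members and lists were chosen with earlier results of these data known. Named genes were every HSP above background, the 4 largest ratios in each direction of each DNAJ class, members above background on 1 array, up to 4 genes with the largest absolute ratio of each partner list, and Tnfaip3; Hspb11, the ER regulators, single cell type markers, Dnajb4 and the genes with printed promoters were named outside this rule, after their values were seen. Alternatives were blank subtraction without offset, offset 16, median scaling, the deposited values, the local background column, no filter and the brightest probe.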

Additional observations from a re-analysis of the deposited data

How the results depend on the processing

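No paired analysis was possible because each genotype has 1 array, and no array could be left out. Of all genes, 240 were higher and 59 lower by 1.5-fold, against 964 and 647 with blank subtraction and 972 and 554 as deposited. Moves are judged against the SD of repeated control spots (0.11). A ratio counted as reversed only if it passed 1.5-fold and changed sign, so among the named members only Dnajb1 and Hspe1 could. Neither did, but Dnajb1 shrank to -0.13 against the local background column. The count of members at least 1.5-fold lower was 2, against 5 in the deposited values and 9 with the local background column. Over all genes the shares lower by that amount were 0.417%, 3.92% and 4.47%. Against the local background column 2 members rather than 0 were higher, beside 5.52% of all genes. The HSP70 and HSP110 median moved from -0.11 to -0.28 with blank subtraction and -0.35 in the deposited values, where the chaperonin median was -0.59 and the DNAJB median -0.22. Against the local background column the medians were -1.24 for HSP90, -0.40 for small HSP, -1.23 for chaperonins and -0.64 for DNAJA; the cause was not tested. Of 38 named member ratios, 38 moved less than the spot error under median scaling, with no filter and with the brightest probe, 33 with offset 16, 24 with blank subtraction, 23 as deposited (1 of opposite sign) and 17 with the local background column (10 of opposite sign). Signal over background limits Hspa1a, Hspa1l, Hspa12a, Hspa12b, Dnajb13 and Dnajc28.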

Other observations

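Probes annotated to pseudogenes of the chaperones gave signal. The Hsp25-ps1 probe read intensities of 267 (control) and 195 (CKO), a ratio of -0.36, beside -0.24 for its parent Hspb1. The Dnajc19-ps probe read 1304 and 1069 (-0.21), beside 0.04 for Dnajc19 (43 and 45). The Hspd1-ps3 probe read 101 and 138 (0.34), on the other side from Hspd1 (-0.15). Such copies are close in sequence, and whether these probes read the pseudogene, the parent or both was not tested.

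Of the members, 6 had 2 probes. For Dnajc3 (P58IPK) they pointed in opposite directions, with ratios of -0.17 (563 and 481) and 0.15 (183 and 203), and the gene's ratio of -0.01 is their mean. The probes of Dnajc14 also disagreed (-0.13 and 0.14), while those of Dnajc1 (0.01 and -0.01) and Dnajb6 (-0.02 and 0.01) were near equal. For Dnajb8 and Dnajc13 only 1 probe was above background. The partner proteins Hspbp1 (27 and 24, -0.07) and Hspbap1 (9 and 9, 0.00) differed little.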
